A study of Homo sapiens with 38 samples.

Results

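The genes described here encode the proteins of the cytosolic ribosome. They were chosen by symbol: RPL or RPS followed by a number, with the endings A, X or L, together with RPLP0, RPLP1, RPLP2 and RPSA. Symbols with pseudogene endings were not taken. The rule found 84 genes among 24463 listed in at least 1 of 15 deposited tables. They were 31 proteins of the small subunit, 46 proteins of the large subunit and 7 paralogs of these (RPL7L1, RPL10L, RPL22L1, RPL26L1, RPL36AL, RPL39L and RPS27L). All but RPL10L were listed in each of the 15 tables, so 83 were tested against DMSO. FAU and RACK1 also encode ribosomal proteins but bear other kinds of symbol, and they are counted below among the translation factors.

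Transcripts with poly(A) tails were sequenced in 38 samples of BT-549, T47D and T47D-TR, established lines from human breast cancers grown in medium with serum and insulin. In all of these lines 48 h of MS177, a PROTAC (a molecule built to bring a protein, here the histone methyltransferase EZH2, to the ubiquitin system for destruction), was set beside MS177-N2 and MS177-N1, which are its negative controls, and beside C24, which inhibits the enzyme activity of EZH2. The dose was 2.5 uM throughout, and vehicle cells had 0.125% DMSO. A further experiment of 30 h used T47D-TR alone, with MS8815 (another EZH2 PROTAC), MS8815-N (the negative control for it) and EPZ-6438 (an inhibitor of EZH2) at 2.5 uM and a vehicle of 0.05% DMSO. By the labels each of the 19 groups held 2 samples. They do not state that these were separate cultures, so p-values measure the spread between these samples, which may be technical.

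Each cytosolic ribosome holds 1 copy of nearly every ribosomal protein, and cells keep the synthesis of these proteins in step. Their mRNAs are known as TOP mRNAs: transcription starts at a C that is followed by an unbroken run of pyrimidines, and this start lets the kinase mTORC1, through the RNA-binding protein LARP1, switch their translation and stability as a group. Proteins such as eEF1A and the host transcripts of many small nucleolar RNAs have the same kind of start. Several paralogs, among them RPL22L1 and RPS27L, can take the place of their partners in the ribosome and are controlled apart from them.

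The start of the transcript is shown for the genes on which the results below turn, since this is the feature that most ribosomal protein genes share. Each line gives the 30 bases before and the 20 bases after the RefSeq transcription start (GRCh38.p14), 5′ to 3′ on the strand of the gene, and capitals mark the pyrimidine run that begins with a C at the first transcribed base.
RPS12: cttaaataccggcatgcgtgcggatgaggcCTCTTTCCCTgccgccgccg
RPS6: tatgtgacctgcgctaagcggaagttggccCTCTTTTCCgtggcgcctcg
RPLP0: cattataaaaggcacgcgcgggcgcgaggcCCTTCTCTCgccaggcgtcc
RPS27: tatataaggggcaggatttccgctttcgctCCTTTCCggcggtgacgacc
RPL22: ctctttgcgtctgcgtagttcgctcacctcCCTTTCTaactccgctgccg
RPL22L1: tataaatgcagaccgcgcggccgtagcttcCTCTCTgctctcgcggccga
RPL3: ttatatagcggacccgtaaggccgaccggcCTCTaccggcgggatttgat
RPS4X: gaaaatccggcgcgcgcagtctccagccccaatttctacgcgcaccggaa
RPS27L: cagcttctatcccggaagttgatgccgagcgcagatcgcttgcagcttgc

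These windows lie at chr6:132814539-132814588 on the plus strand for RPS12, chr9:19380217-19380266 on the minus strand for RPS6 and chr12:120201092-120201141 on the minus strand for RPLP0. They lie at chr1:153990732-153990781 on the plus strand for RPS27, chr1:6199576-6199625 on the minus strand for RPL22 and chr3:170870176-170870225 on the minus strand for RPL22L1. For RPL3, RPS4X and RPS27L they are chr22:39319604-39319653, chrX:72277229-72277278 and chr15:63157458-63157507, all on the minus strand. A start was counted as TOP-like when a C at the first transcribed base was followed by at least 4 more pyrimidines, and 68 of the 84 genes had a RefSeq window. A gene with several windows counted once, if any of them met the rule. Of the 62 genes with a window that are not paralogs, 46 (74.2%) had such a start, against 1404 of 27305 (5.14%) over all genes with a window. Of the 6 paralogs with a window 1 did (16.7%), RPL22L1, with a run of 6 pyrimidines. RPS12 had a run of 10, RPS6 and RPLP0 runs of 9, and RPL22 and RPS27 runs of 7. RPL3, with a run of 4, fell short, and RPS4X and RPS27L had no C at the annotated start. The letters TATAAA, searched in a stretch shortly before the start that reaches beyond the bases printed, were found in 3.23% of the same 62 genes, against 2.9% of all. The letters CTTCCGG were searched on both strands over the full RefSeq window, which is longer than the bases printed above. They were found in 35.5% of the 62 genes, against 12.2% of all.

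The depth of the T47D and BT-549 libraries, 32.1 to 49.9 M reads over the listed genes, was recovered from the deposited values, but could not be recovered for T47D-TR. Levels below are normalized counts, obtained by undoing the deposited log2 transform within each table. For T47D-TR it is not known that this step gives scaled counts. Folds are ratios of group means of these counts, while log2 differences against DMSO (± SE) are on the deposited scale, which compresses low levels. Differences were tested with limma, and a gene was called when its Benjamini-Hochberg adjusted p over all tested genes was below 0.05. The epithelial luminal markers that define T47D were listed in both T47D lines (8 of 8), and the mesenchymal markers in BT-549 (7 of 7). Listing alone did not separate the lines. In the MS177 comparison BT-549 also listed 7 of 8 luminal markers, and T47D 6 of 7 mesenchymal markers. With DMSO there, luminal markers summed to 478312 and 465708 counts in T47D, against 27877 and 25342 in BT-549. Mesenchymal markers summed to 1153 and 898.3 counts in T47D, against 138769 and 138109 in BT-549. Several libraries stood apart. The pair of MS177 libraries in T47D had a Pearson r of 0.934 across genes. The pairs of MS8815, MS8815-N and EPZ-6438 libraries had r values of 0.921, 0.767 and 0.941. MS8815-N replicate 2 listed 6933 of 15648 genes at 0. In MS8815 replicate 1 a single gene, HSP90AA1, took 12.4% of all normalized counts. In no other library did the top gene exceed 2.68%. The deposited table of MS177-N1 in T47D held 1 library of that compound, its other column being equal to MS177-N2 replicate 2 at 100% of 17724 genes.

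Ribosomal protein transcripts made up 5.05 to 15% of all normalized counts of a library. In T47D-TR they were 6.63 and 7.52% of counts with MS177, against 6.41 and 5.05% with DMSO. With MS177-N1 they were 8.55 and 8.83%, against 6.50 and 5.12% with DMSO in that table, without overlap (8.69 ± 0.203% with MS177-N1 and 5.81 ± 0.977% with DMSO; SD, n = 2 each). In BT-549 they were 7.71 and 10.4% with MS177, against 8.08 and 6.48% with DMSO, so the groups overlapped. In T47D they were 15 and 5.71% with MS177, against 5.50 and 6.33% with DMSO. Replicate 1 of MS177 alone was high there. In the 30 h series the libraries of a compound differed more than the compounds did: 12.3 and 8.49% with MS8815, 14.1 and 7.39% with MS8815-N and 8.68 and 13.8% with EPZ-6438, against 9.54 and 8.46% with DMSO. With 2 libraries a group an exact permutation test of these shares cannot reach the threshold, and none is given. In bulk RNA a smaller share of cells that express a gene and less RNA per cell cannot be told apart.

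**Figure D1:**
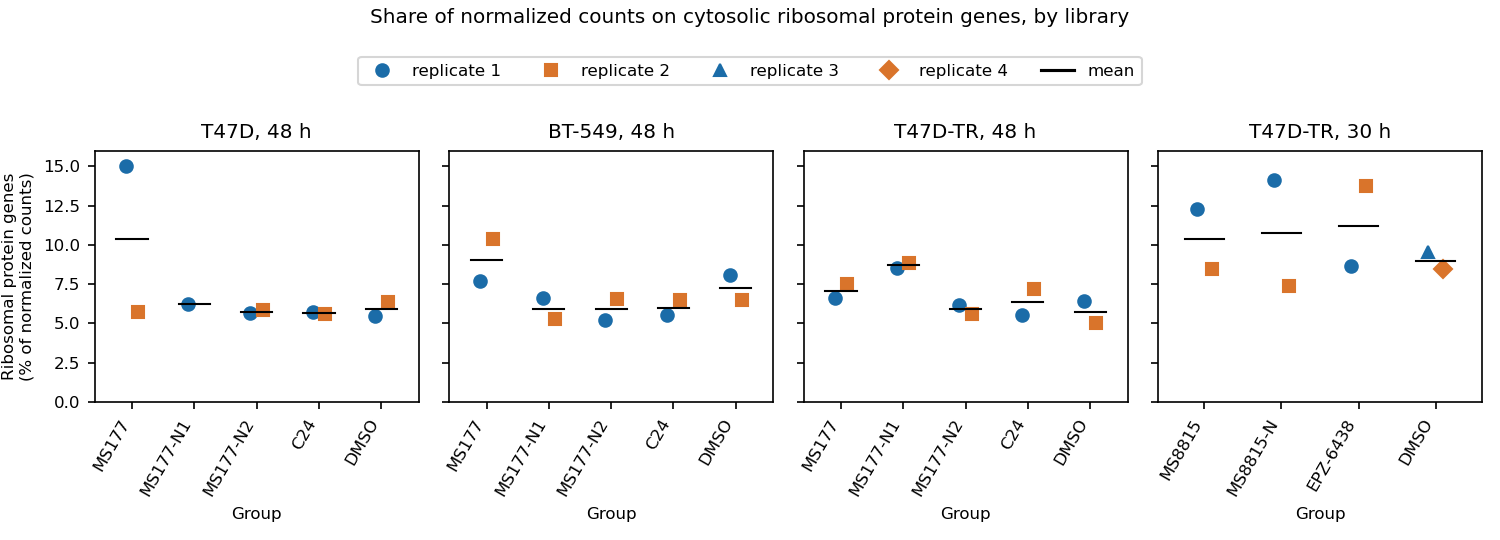
Share of all normalized counts taken by the ribosomal protein genes (percent, vertical axis) by line, time and treatment; each point is a library and the line is the group mean. The points of MS177-N1 in T47D-TR, at 8.55 and 8.83%, lie above both DMSO points, and 1 MS177 library of T47D, at 15%, lies far above its partner at 5.71%.

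In T47D-TR cells, MS177 raised 31 of 83 ribosomal protein genes and lowered 6. A call was made for 62.5% of all genes tested in this comparison, 31.1% higher and 31.4% lower, so 37 called members (44.6%) is a smaller share than over all genes, while the members called higher (37.3%) are a slightly larger one. The median log2 difference of the members was 0.32, with a range of −0.59 to 1.08. Among small subunit proteins 11 rose and 1 fell, among large subunit proteins 17 rose and 3 fell, and among paralogs 3 rose and 2 fell. The called members moved in both directions, up to 3.18-fold higher and down to 0.501 of DMSO.

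RPS12, a protein of the small subunit head (gene at chr6:132814441-132817564, hg38, as are the gene positions that follow), had 12779 and 15907 normalized counts with MS177, against 8119 and 5217 with DMSO. Both MS177 libraries lay above both DMSO libraries. The rise was 2.15-fold (log2 difference 1.08 ± 0.21, adjusted p = 0.00349, limma). RPS27A is made as a fusion of ubiquitin with a small subunit protein (chr2:55231903-55235588). It had 13107 and 18925 counts with MS177, against 9745 and 5647 with DMSO, again without overlap, a 2.08-fold rise (1.04 ± 0.26, adjusted p = 0.0117).

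RPS6, the substrate of the S6 kinases (chr9:19375715-19380254), had 23482 and 28660 counts with MS177, against 16088 and 11392 with DMSO. The groups did not overlap, and the rise was 1.90-fold (0.92 ± 0.19, adjusted p = 0.00484). RPS27, a zinc-binding small subunit protein (chr1:153990755-153992155), had 811.5 and 937 counts with MS177, against 308.8 and 241.4 with DMSO. It had the highest fold among the members, 3.18 (1.01 ± 0.10, adjusted p = 0.000169), and both MS177 libraries were high. Its counts with DMSO in T47D-TR were low beside those of its paralog RPS27L, a limit given below. Other small subunit genes called higher included RPS13, RPS15A, RPS18, RPS20, RPS26 and RPS29.

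Not all small subunit genes followed. RPS3, which lines the mRNA entry channel, had 15697 and 19120 counts with MS177, against 22553 and 15519 with DMSO, and the groups overlapped (adjusted p = 0.652). RPS19, a gene mutated in Diamond-Blackfan anaemia, had 6104 and 7934 counts with MS177, against 7746 and 5234 with DMSO (adjusted p = 0.619). RPSA, known also as a laminin receptor, had 34886 and 40082 with MS177, against 38048 and 28640 with DMSO (adjusted p = 0.41). Both of these overlapped as well. RPS4X, the X-linked form of a small subunit protein (chrX:72272042-72277300), was the 1 small subunit gene that fell. It had 4365 and 4482 counts with MS177, against 7330 and 6415 with DMSO, without overlap, a level 0.644 of DMSO (−0.59 ± 0.11, adjusted p = 0.00266).

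Among large subunit proteins, RPL5, which carries 5S rRNA to the ribosome and can bind the p53 regulator MDM2, rose 1.41-fold. Its levels were 11169 and 12719 counts with MS177, against 9321 and 7648 with DMSO, without overlap (0.48 ± 0.14, adjusted p = 0.0192). RPL11, its partner in that complex, had 5559 and 6268 counts with MS177, against 5444 and 4578 with DMSO, also without overlap but not past the threshold (0.22, adjusted p = 0.143). RPL26, which in human cells also binds p53 mRNA, had 1244 and 1561 counts with MS177, against 976.2 and 805.2 with DMSO, and rose 1.57-fold (0.49 ± 0.12, adjusted p = 0.00993). Other large subunit genes called higher included RPL8, RPL9, RPL10A, RPL12, RPL13, RPL19, RPL27, RPL30, RPL32, RPL35A, RPL36, RPL36A, RPLP1 and RPLP2.

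RPLP0, the base of the acidic stalk that binds elongation factors, had 50536 and 55430 counts with MS177, against 45571 and 33285 with DMSO. The groups did not overlap, and the difference missed the threshold (0.44 ± 0.18, adjusted p = 0.0746), while the stalk proteins RPLP1 and RPLP2 were called. RPL3, which reaches to the peptidyl transferase centre, had 18344 and 18547 counts with MS177, against 23433 and 19594 with DMSO (−0.21 ± 0.14, adjusted p = 0.21). RPL7A, a protein of the large subunit that is also needed for its assembly (chr9:133348214-133351426), had 14160 and 16066 counts with MS177, against 25212 and 17950 with DMSO, a level 0.70 of DMSO (−0.48 ± 0.18, adjusted p = 0.0491). That call stood in 3 of 12 alternative settings. RPL10 and RPL29 were the other large subunit genes called lower.

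Among the paralogs, calls went both ways. RPL22L1, the paralog of the RNA-binding protein RPL22 (chr3:170864875-170870483), had 1566 and 1898 counts with MS177, against 689.5 and 627.8 with DMSO. It rose 2.63-fold (1.03 ± 0.10, adjusted p = 0.000199). RPL22 itself (chr1:6185020-6199612) had 4164 and 4411 counts with MS177, against 4943 and 4547 with DMSO, not overlapping but not called (−0.13, adjusted p = 0.268). RPL22L1 thus made up 27.3 and 30.1% of the counts of the pair with MS177, against 12.2 and 12.1% with DMSO. These shares are not corrected for transcript length and serve only to compare libraries.

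RPS27L, a p53-inducible paralog of RPS27 (chr15:63148250-63157802), had 267.2 and 305.7 counts with MS177, against 527.7 and 495.3 with DMSO. It fell to 0.56 of DMSO (−0.47 ± 0.08, adjusted p = 0.00222) while RPS27 rose, and its share of the pair was 24.8 and 24.6% with MS177, against 63.1 and 67.2% with DMSO. In T47D the share was 5.77 and 5.83% with MS177, against 6.24 and 6.74% with DMSO. In BT-549 it was 4.21 and 4.38% with MS177, against 5.21 and 5.33% with DMSO. RPS27 counts were thus low beside RPS27L in T47D-TR alone. Whether reads of RPS27 were assigned elsewhere in T47D-TR was not tested. RPL39L, a paralog of the exit tunnel protein RPL39 that is best known from testis (chr3:187120948-187139484), had 245.9 and 236.1 counts with MS177, against 531.2 and 431.7 with DMSO. It fell to 0.501 of DMSO (−0.53 ± 0.09, adjusted p = 0.00186), and its share of the pair was 8.39 and 7.34% with MS177, against 13.4 and 14% with DMSO. RPL36AL, the autosomal copy of RPL36A, rose 1.61-fold (0.62 ± 0.16, adjusted p = 0.0131) together with RPL36A, so that its share of the pair, 54.9 and 53.4% with MS177 against 52.3 and 50.4% with DMSO, differed by only a few percentage points. RPL26L1 was the third paralog called higher.

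**Figure D2:**
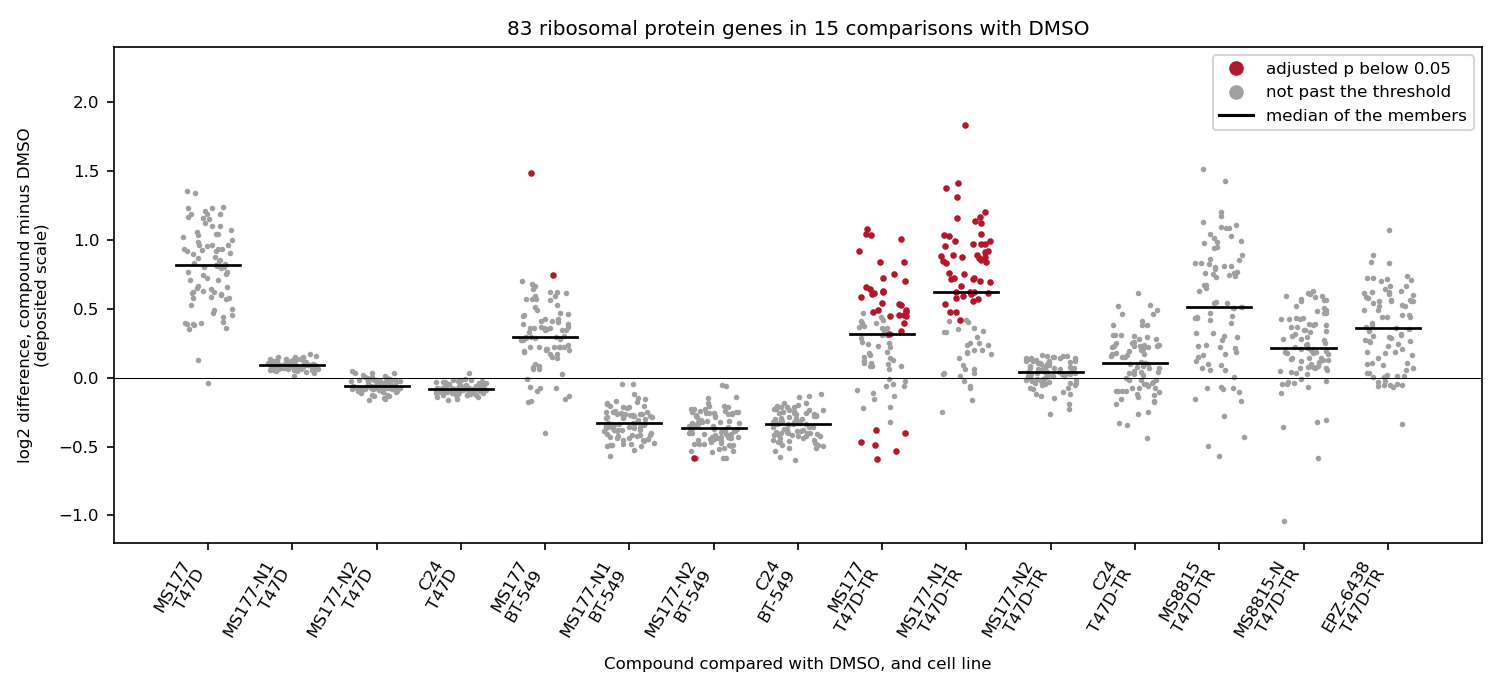
Log2 difference from DMSO on the deposited scale (vertical axis) of the 83 ribosomal protein genes in each of 15 comparisons; each point is a gene, red points passed the threshold and the line is the median of the members. With MS177 in T47D-TR the members spread from −0.59 (RPS4X) to 1.08 (RPS12), with called genes on both sides of 0, while with MS177-N1 all 52 called genes lie above 0.

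Leaving out a library changed the number of calls. In each such fit the library left alone in its group was assumed to vary like the other groups fitted. Without DMSO replicate 1, 58 members were called (54 higher, 4 lower) and 59.5% of all genes. Without MS177 replicate 2, 14 members were called (11 higher, 3 lower) and 48.1% of all genes. RPS6, RPS12, RPS27, RPL22L1, RPS4X, RPS27L and RPL39L were called in 12 of 12 alternative settings.

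In BT-549 cells, MS177 raised 2 of 83 members and lowered none, where 27.3% of all genes were called (12.9% higher). The estimates of 73 members were above 0, with a median of 0.30 and a range of −0.40 to 1.49, and the libraries of a group differed by a median of −0.52 (MS177) and 0.41 (DMSO) over the core members. RPL22L1 had 1735 and 2634 counts with MS177, against 817.3 and 597.8 with DMSO. Both MS177 libraries were above both DMSO libraries, and the rise was 3.09-fold (1.49 ± 0.24, adjusted p = 0.0126, limma), called in 13 of 13 alternatives. Its share of the counts of its pair with RPL22 was 7.41 and 9.11% with MS177, against 3.57 and 3.27% with DMSO. RPL12, a protein beside the stalk base (chr9:127447674-127451405), had 32525 and 41073 counts with MS177, against 23957 and 19729 with DMSO, a 1.68-fold rise (0.75 ± 0.18, adjusted p = 0.0368), called in 10 of 13 alternatives.

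The members just short of a call in BT-549 included RPL3, with 66218 and 79227 counts with MS177, against 52734 and 44987 with DMSO (0.57 ± 0.17, adjusted p = 0.0628). RPS6 had 127114 and 181714 counts with MS177, against 112044 and 84103 with DMSO (0.65 ± 0.25, adjusted p = 0.118). RPLP0 had 86542 and 119727 with MS177, against 76170 and 59700 with DMSO (0.59, adjusted p = 0.115). None of these 3 overlapped between groups, and in each the second MS177 library was the highest. RPL11 had 35895 and 42068 counts with MS177, against 41419 and 33242 with DMSO, and RPS27 had 16506 and 20197 with MS177, against 23286 and 17185 with DMSO, both overlapping. RPS27L, at 725.3 and 924.6 counts with MS177 against 1281 and 966.9 with DMSO, was the lowest estimate (−0.40 ± 0.18, adjusted p = 0.16). Without MS177 replicate 1, 29 members were called (30.3% of all genes), without DMSO replicate 1, 4 (17.9%), and without DMSO replicate 2, 1 (17.3%). In the main fit 7 of 13 mitochondrially encoded transcripts fell (median −0.76), where 2079 of all 14474 genes tested were called lower.

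In T47D cells, MS177 gave no call among the 83 members, with 0 at an unadjusted p below 0.05 and 0 by limma-voom on the recovered reads, and 0% of all 18146 genes tested were called (3247 at an unadjusted p below 0.05). The MS177 libraries differed widely. RPL13, a protein of the large subunit surface (chr16:89560681-89563080), had 363991 and 75287 counts with MS177, against 60279 and 69621 with DMSO (1.35 ± 0.85, adjusted p = 0.448). RPL22L1 had 6059 and 1535 counts with MS177, against 1017 and 1393 with DMSO (1.34 ± 0.72, adjusted p = 0.392). In both, replicate 1 was several times replicate 2, which was itself just above both DMSO libraries.

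RPS6 had 99794 and 32119 counts in the MS177 libraries of T47D, against 26226 and 31298 with DMSO (0.98, adjusted p = 0.464). RPLP0 had 276134 and 97179 with MS177, against 86465 and 101402 with DMSO, overlapping (0.81, adjusted p = 0.528). Without MS177 replicate 2, all 83 members were called higher, where 69.9% of all genes were called. Without MS177 replicate 1, 12 were called (2 higher, 10 lower), where 49.7% of all genes were. RPL39L, at 1970 and 420.2 counts with MS177 against 773.4 and 900.3 with DMSO, and RPL7A, at 94542 and 38417 with MS177, against 58744 and 65230 with DMSO, changed sign with the library left out. The paralog shares were steadier than the levels. RPL22L1 was 21.8 and 15% of its pair with MS177, against 9.32 and 11.3% with DMSO, and RPL39L was 7.44 and 8.05% with MS177, against 11.7 and 11.1% with DMSO.

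**Figure D3:**
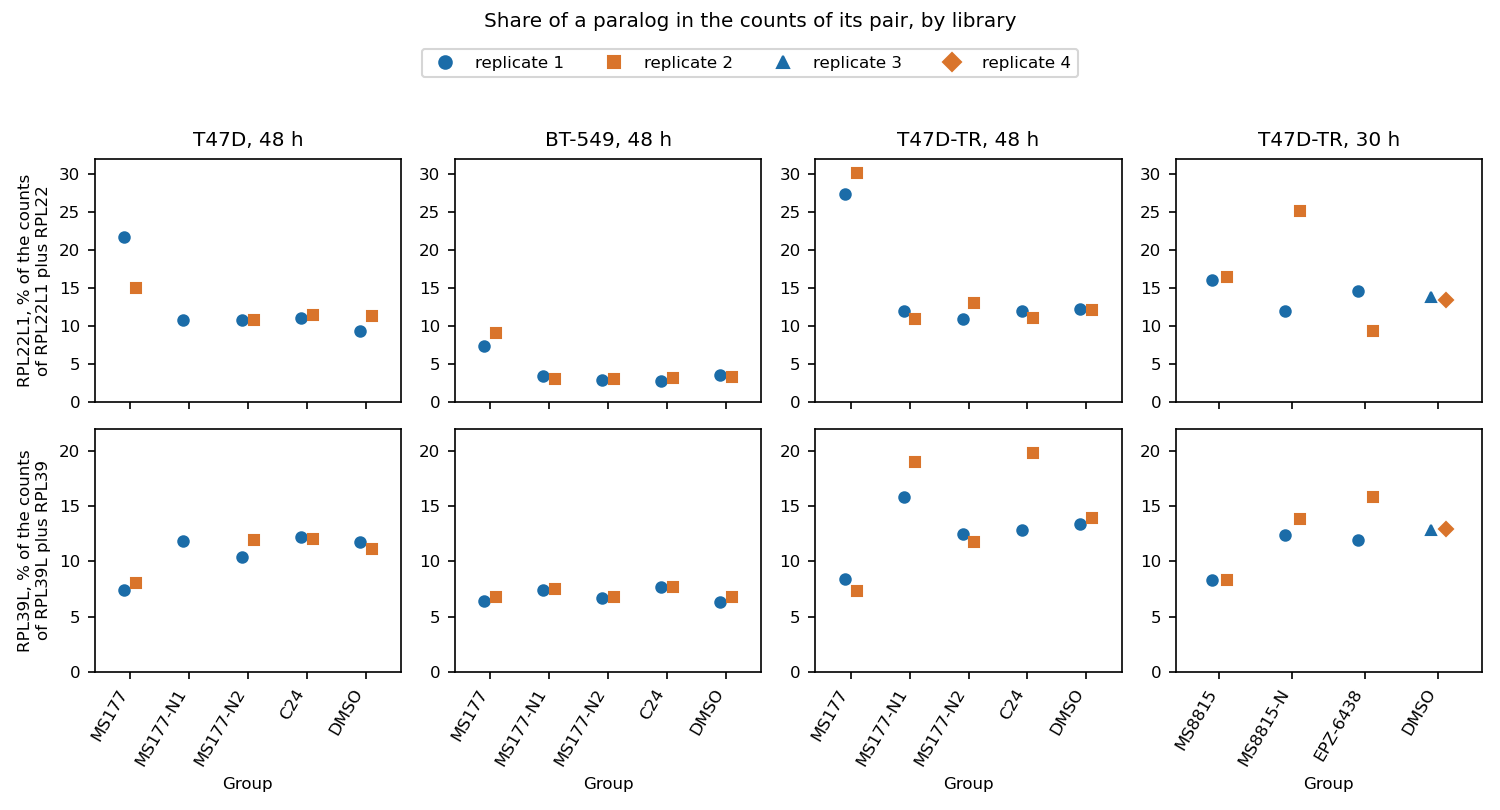
Share of a paralog in the normalized counts of its pair (percent, vertical axis) in each library, by line, time and treatment, for RPL22L1 with RPL22 (upper row) and RPL39L with RPL39 (lower row); each point is a library. The RPL22L1 share lies higher with MS177 than with DMSO in all 3 lines, at 27.3 and 30.1% with MS177 against 12.2 and 12.1% with DMSO in T47D-TR.

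MS8815, given to T47D-TR for 30 h, gave no call among 83 members, where 6.25% of all genes were called. An unadjusted p below 0.05 was reached by 5. The median log2 difference was 0.52 (range −0.57 to 1.52), and it rested on replicate 1. RPS27A had 58650 and 12024 counts with MS8815, against 9874 and 8649 with DMSO (1.52 ± 0.78, adjusted p = 0.263). RPL9, of the large subunit, had 43157 and 8130 with MS8815, against 7452 and 6451 with DMSO (1.42, adjusted p = 0.304). The replicates of MS8815 thus differed more from each other than the lower of them did from DMSO.

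RPS27 and RPL22L1 were less split. RPS27 had 529.2 and 413.6 counts with MS8815, against 268.6 and 259.6 with DMSO, 1.78-fold (0.67 ± 0.19, adjusted p = 0.0992). RPL22L1 had 1598 and 779.4 with MS8815, against 626.2 and 542.5 with DMSO, 2.03-fold (0.85 ± 0.36, adjusted p = 0.199). RPS27L was 40.3 and 41.3% of the counts of its pair with MS8815, against 61.6 and 59.9% with DMSO, and RPL39L was 8.31 and 8.31% with MS8815, against 12.9 and 12.9% with DMSO. Replicates agreed closely in these shares. The lowest estimates were those of RPS26, at 4091 and 2219 counts with MS8815 against 4621 and 4003 with DMSO (−0.50, adjusted p = 0.386), and RPS10, at 281.6 and 56.4 with MS8815, against 249.1 and 233.8 with DMSO (−0.57, adjusted p = 0.494), both small subunit proteins whose genes are mutated in Diamond-Blackfan anaemia. Without MS8815 replicate 1, 17 members were called (10 higher, 7 lower) and 49.0% of all genes, and without replicate 2, 66 members (65 higher, 1 lower) and 59.8% of all genes.

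Of the 15 comparisons with DMSO, that of the negative control MS177-N1 in T47D-TR gave the most calls among the members. It raised 52 of 83 (62.7%) and lowered none, where 27.5% of all genes were called, 14.9% higher. The median log2 difference was 0.62 (range −0.25 to 1.84). Of the small subunit proteins 22 rose (median 0.84), of the large subunit proteins 28 (median 0.61) and of the paralogs 2. RPS27A had 18778 and 30414 counts with MS177-N1, against 8542 and 4906 with DMSO, 3.66-fold higher (1.84 ± 0.30, adjusted p = 0.00725). RPS19 had 14000 and 17494 with MS177-N1, against 6973 and 4670 with DMSO, 2.70-fold (1.41 ± 0.20, adjusted p = 0.0027). Neither overlapped with DMSO.

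RPS3 had 34003 and 41362 counts with MS177-N1, against 20161 and 13752 with DMSO, 2.22-fold (1.16 ± 0.21, adjusted p = 0.00424). RPSA had 51430 and 58471 with MS177-N1, against 34161 and 25488 with DMSO, 1.84-fold (0.89, adjusted p = 0.00995). These 3 genes, RPS3, RPS19 and RPSA, overlapped with DMSO under MS177 and did not under MS177-N1. RPS6, called with both compounds, had 22343 and 25316 counts with MS177-N1, against 14114 and 9906 with DMSO, 1.98-fold (0.99 ± 0.19, adjusted p = 0.00532).

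The paralog pairs are given for MS177-N1 too, and the direct tests between compounds come later. RPL22, with 6425 and 7192 counts with MS177-N1, against 4101 and 3740 with DMSO, rose 1.74-fold (0.75, adjusted p = 0.00472). RPL22L1, with 876.1 and 877.4 with MS177-N1, against 625.4 and 564.4 with DMSO, rose 1.47-fold (0.42, adjusted p = 0.0216). RPS27 had 306.4 and 214.5 counts with MS177-N1, against 279.4 and 216.5 with DMSO, and overlapped (0.04, adjusted p = 0.852). RPLP0 had 53126 and 53676 with MS177-N1, against 40875 and 29592 with DMSO (1.52-fold, adjusted p = 0.0425). RPL5 (0.42, adjusted p = 0.0631), RPL3 (0.33, adjusted p = 0.166) and RPL11 (0.25, adjusted p = 0.209) were not called.

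All 52 calls of MS177-N1 were lost, with 0 members called, when the libraries of all compounds of T47D-TR at 48 h were fitted together (0.0333% of all genes). Without DMSO replicate 2 there were 15 (2.06% of all genes), and without MS177-N1 replicate 2 there were 31 (8.43%). In the main fit of MS177-N1, 1573 of all 10578 genes tested were called higher and 1333 lower. In that fit 48 of 76 subunits of the respiratory chain encoded in the nucleus and 37 of 77 mitochondrial ribosomal proteins rose. There 1 respiratory chain subunit fell, and 10 of 13 mitochondrially encoded transcripts fell. The part of these shifts in the ribosomal protein result was not tested.

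Among the other controls and the inhibitors, 1 member was called against DMSO. MS177-N2 in BT-549 lowered 1 of 83, where 3.42% of all genes were called (1.37% lower): RPL22L1, with 391.4 and 453.4 counts with MS177-N2, against 789.2 and 575.6 with DMSO, a level 0.619 of DMSO (−0.58 ± 0.16, adjusted p = 0.0493, limma). It is the gene that MS177 raised most in that line, against the same DMSO libraries. The call was lost under 8 alternative settings that kept every library. With a library left out the estimate ranged from −0.78 to −0.38, and 3 of those fits lost the call too. No estimate was above 0 in BT-549 with MS177-N1 (0 called, 0 at an unadjusted p below 0.05; 0% of all genes), MS177-N2 (median −0.36) or C24 (0 called, 18 at an unadjusted p below 0.05; 0.134% of all genes). Limma-voom called 0 members in each of these. With the replicate number as a block, 81 members were called with MS177-N1, all lower, where 20.7% of all genes were called. Same-numbered libraries of that comparison deviated together (correlation 0.73). Without DMSO replicate 2, 31 members were called with MS177-N2 (9.75% of all genes) and 14 with C24 (5.87%). The comparisons share their DMSO libraries, of which replicate 1 was the higher by a median of 0.41 (log2) over members. RPL41, the smallest large subunit protein, had 57795 and 40706 counts with MS177-N1, against 86530 and 59656 with DMSO (−0.57, adjusted p = 0.895). RPL39 had 21551 and 23825 with C24, against 41607 and 28527 with DMSO (−0.60 ± 0.19, adjusted p = 0.351).

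In T47D no member was called with MS177-N1 (1 library, taken to vary as DMSO did; 0.179% of all genes called), MS177-N2 (0%) or C24 (0.847%), with 0 at an unadjusted p below 0.05 and 0 by limma-voom in each. The median log2 differences were 0.09, −0.06 and −0.08. RPL36A with MS177-N1 had 7298 counts, against 5790 and 7103 with DMSO, and RPS15A with MS177-N2 had 18319 and 18220, against 18477 and 22716 with DMSO. RPL22L1 differed by 0.04 with both MS177-N2 and C24. Without DMSO replicate 1, 49 members were called lower with MS177-N2 (9.19% of all genes called) and 61 with C24 (20.4%).

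In T47D-TR no member was called with MS177-N2 (0.175% of all genes) or C24 (0.00851%), with 0 at an unadjusted p below 0.05 in each, and the medians were 0.04 and 0.11. RPL39L had 377.5 and 453.8 counts with MS177-N2, against 603.5 and 494.7 with DMSO, without overlap (−0.26, adjusted p = 0.911). RPS27A had 6650 and 21488 with C24, against 10168 and 5924 with DMSO, so that C24 replicate 2 alone was high (0.61, adjusted p = 0.999).

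At 30 h, MS8815-N and EPZ-6438 gave no call (0% of all genes each), with 1 and 0 members at an unadjusted p below 0.05. Their replicates were split in the members as those of MS8815 were. RPL15, of the large subunit, had 14470 and 1069 counts with MS8815-N, against 9194 and 7595 with DMSO (−1.04, adjusted p = 0.807). RPS10, at 177.2 and 179 counts with MS8815-N, against 93.4 and 89.2 with DMSO, did not overlap (0.63, adjusted p = 0.798). With EPZ-6438 RPS27A had 9057 and 56656 counts, against 11478 and 10090 with DMSO (1.07, adjusted p = 0.888), and RPL13A had 29930 and 108295 with EPZ-6438, against 32801 and 28832 with DMSO (0.89). Without MS8815-N replicate 1, 63 members were called (3 higher, 60 lower) and 75.6% of all genes, and without replicate 2, 80 members, all higher, and 43.2% of all genes. Without EPZ-6438 replicate 1, 56 members were called (55 higher, 1 lower) and 40.6% of all genes, and without replicate 2, 0 members and 0.137%.

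Replicate gaps were shared by many members of a library pair. In T47D the first MS177 library exceeded the second by a median of 1.86 (deposited log2 scale) over the 77 proteins that are not paralogs. The gap was 1.39 for MS8815-N, 0.89 for MS8815 and −0.83 for EPZ-6438, where replicate 2 was the higher. DMSO pairs differed by 0.36 in T47D-TR at 48 h, 0.41 in BT-549 and −0.23 in T47D. Genes outside the module with coding sequences of at most 500 bases shifted the same way, by 0.85 in the MS177 pair of T47D, 0.68 for MS8815-N and 0.39 for MS8815. Genes with coding sequences over 2000 bases shifted the opposite way in the same pairs, by −0.62, −0.21 and −0.14. For both sets of genes the EPZ-6438 and DMSO pairs are shown in the figure that follows. These values are descriptions of single library pairs, and their part in the differences between treatments was not tested.

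**Figure D4:**
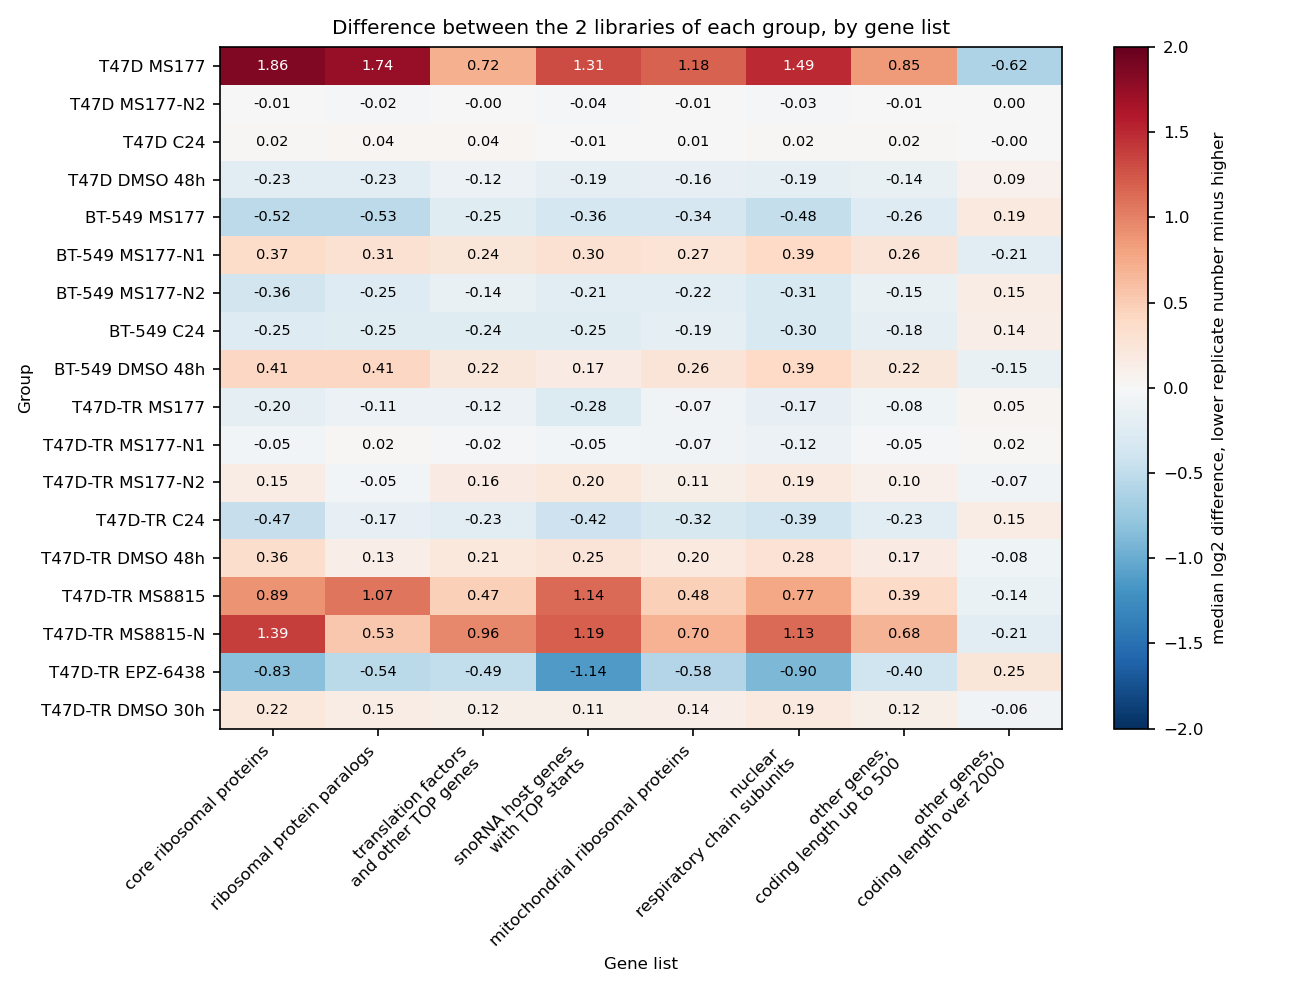
Median log2 difference between the lower-numbered and the higher-numbered library of each group, on the deposited scale (colour and printed value), for ribosomal proteins, related gene lists and other genes of short or long coding sequence; each line down the page is a group. The pairs with the widest gaps in ribosomal proteins are MS177 in T47D (1.86) and MS8815-N (1.39), and in both the genes of long coding sequence lie on the other side of 0.

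Direct comparisons between compounds, 11 in all, asked whether MS177 or MS8815 differed from its negative controls or from an inhibitor at the same dose and time. They were tested with limma on log2(normalized count + 1). In BT-549, MS177 was higher than MS177-N1 at 34 members, than MS177-N2 at 40 and than C24 at 35, and lower at none, where 33.1%, 37.2% and 35.7% of all genes were called, 15.4%, 17.8% and 16.8% higher. The medians were 0.67, 0.70 and 0.68. RPL22L1 had 1735 and 2634 counts with MS177, against 644.7 and 433.6 with MS177-N1, a 4.05-fold difference (2.01 ± 0.29, adjusted p = 0.000872). Against MS177-N2, with 405.9 and 470.2, it was 4.99-fold (adjusted p = 0.000411), and against C24, with 377 and 579.6, it was 4.57-fold (adjusted p = 0.000491). No library of the controls reached either MS177 library.

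RPL26 came next against MS177-N1 in BT-549 (2.27-fold, 1.16 ± 0.26, adjusted p = 0.00807). RPL9 came next against MS177-N2, with 25154 and 38711 counts with MS177, against 12614 and 15335 (2.29-fold, adjusted p = 0.00648), and against C24 (2.32-fold, adjusted p = 0.00579). These counts of members hung on single libraries. Without MS177 replicate 1 they were 59 against MS177-N1, 64 against MS177-N2 and 64 against C24, where 28.7%, 33.3% and 30.6% of all genes were called. Without MS177 replicate 2 they were 5, 6 and 7, where 19.9%, 22.9% and 23.4% of all genes were. They were also 5 without MS177-N1 replicate 2 (21.2% of all genes), 3 without MS177-N2 replicate 1 (23.4%) and 4 without C24 replicate 1 (20.5%). RPL22L1 was called in 9 of 9 alternatives of each of the 3 comparisons.

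In T47D-TR, MS177 was higher than MS177-N2 at 26 of 84 members and lower at 3 (46.3% of all genes called, 21.8% higher and 24.5% lower), and higher than C24 at 21 and lower at 5 (48.1%, 22.3% higher and 25.7% lower). Against MS177-N1 it was higher at 7 and lower at 26 (50.7%, 23.9% higher and 26.8% lower), with a median of −0.37. RPS27 had 811.5 and 937 counts with MS177, against 339.9 and 238.1 with MS177-N1, 3.03-fold (1.61 ± 0.22, adjusted p = 0.000351). Against MS177-N2, with 242.3 and 325.1, it was 3.08-fold (adjusted p = 0.000378), and against C24, with 255.4 and 252.4, it was 3.44-fold (adjusted p = 0.000211). RPL22L1 was 1.78-fold higher than with MS177-N1 (adjusted p = 0.002), 2.76-fold higher than with MS177-N2 (adjusted p = 9.27e-05) and 2.53-fold higher than with C24 (adjusted p = 0.000138). Both genes were called in 9 of 9 alternatives against each compound.

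On the lower side, RPS14, a small subunit protein, had 8618 and 10682 counts with MS177, against 24316 and 30247 with MS177-N1, 0.354 of its level (−1.50 ± 0.34, adjusted p = 0.00579). RPL39L, against 679.6 and 618.2 with MS177-N1, was at 0.371 of its level (−1.42, adjusted p = 0.000137), and at 0.522 of that with C24 (adjusted p = 0.00157). RPS4X was at 0.63 and RPS27L at 0.65 of their levels with MS177-N2 (adjusted p = 0.00203 and 0.00435). RPL7A was at 0.591 of its level with C24 (adjusted p = 0.0279), a call that stood in 4 of 9 alternatives. Without MS177 replicate 1, 17 members were called against MS177-N1 (38.2% of all genes), and without MS177-N1 replicate 2, 18 (39.5%). Against MS177-N2 there were 10 without MS177 replicate 2 (33.1%), 14 without MS177-N2 replicate 1 (34.7%) and 14 without its replicate 2 (34.0%). Against C24 there were 13 without MS177 replicate 2 (35.9%).

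In T47D no member was called between MS177 and MS177-N1, MS177-N2 or C24, where 8.56%, 16.7% and 19.3% of all genes were called, and 0, 2 and 2 members had an unadjusted p below 0.05. The difference of RPL22L1 was 1.15 against MS177-N1 (95% interval −0.63 to 2.92), 1.29 against MS177-N2 (−0.16 to 2.74) and 1.3 against C24 (−0.15 to 2.75), intervals that hold the estimates of the other lines as well as 0. Without MS177 replicate 2, 83 members were called in each of these comparisons, where 69.5%, 74.4% and 75.1% of all genes were called. Without MS177 replicate 1, the members called were 40 against MS177-N1, 24 against MS177-N2 and 23 against C24, where 53.9%, 55.8% and 57.3% of all genes were. MS177 then had 1 library, as MS177-N1 had throughout, and the spread came from the other groups of the line. MS8815 against MS8815-N gave 0 members (0.0574% of all genes; 2 at an unadjusted p below 0.05) and against EPZ-6438 gave 0 (0.108%; 0). Without MS8815-N replicate 1, 7 were called against MS8815-N (56.0% of all genes). RPS27 was 1.41-fold higher with MS8815 than with MS8815-N (0.55, interval −0.39 to 1.49, adjusted p = 0.449) and 1.77-fold higher than with EPZ-6438 (0.81, interval −0.12 to 1.75, adjusted p = 0.708). RPL22L1 differed by 0.20 from MS8815-N (interval −0.78 to 1.17) and by 0.82 from EPZ-6438 (interval −0.15 to 1.80).

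Whether the response to MS177 differs between lines was tested as an interaction. Between T47D-TR and BT-549 the difference of responses was called for 3 members, 1 higher and 2 lower in T47D-TR, where 32.5% of all genes were called (14.9% higher, 17.6% lower). RPS27 responded by 1.67 (log2) in T47D-TR and −0.13 in BT-549, a difference of 1.80 ± 0.27 (95% interval 1.18 to 2.43, adjusted p = 0.00224), called in 11 of 11 alternatives. The low RPS27 counts in T47D-TR described above limit this result too. RPL3 responded by −0.22 and 0.57 (difference −0.79 ± 0.21, adjusted p = 0.0242), and RPS4X by −0.63 and 0.06 (−0.69 ± 0.20, adjusted p = 0.0339), both called in 5 of 11 alternatives. The RPL22L1 response was 1.39 in T47D-TR and 1.61 in BT-549 (difference −0.22, interval −0.98 to 0.53, adjusted p = 0.641). Between T47D and BT-549 (1.72% of all genes) and between T47D-TR and T47D (0.0314%) 0 members were called and 0 had an unadjusted p below 0.05. Without MS177 replicate 2 of T47D, 68 and 78 were called (48.9% and 43.7% of all genes), and without its MS177 replicate 1, 0 and 1 (15.1% and 14.0%). Between T47D-TR and BT-549, 1 was called without DMSO replicate 1, MS177 replicate 1 or MS177 replicate 2 of T47D-TR or DMSO replicate 2 of BT-549 (23.4 to 27.7% of all genes), and 5 without MS177 replicate 1 of BT-549 (26.0%).

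How reads were assigned between these genes and their copies differed between the tables. Of 48 members with listed processed pseudogenes, 13 had over 10% of the family's counts on pseudogene entries in at least 1 T47D-TR library. By the same rule it was 1 of 48 in T47D and 1 of 43 in BT-549. The highest library of a gene decides this count. RPL15 ranged from 2.05 to 33.8% over T47D-TR libraries and RPL24 from 1.68 to 13%. RPS2 was above 10% in every library of each line. RPS7, picked after its values were seen, had 21.2 to 81.7% of its family's counts on such entries in T47D-TR and 0.68 to 1.06% in T47D. Levels of a member in T47D-TR therefore cannot be set against its level in the other lines, and only differences within a line are used. Adding the counts of pseudogene entries to their members gave 35 called members with MS177 in T47D-TR, against 37 in the main fit. The fit with added counts also used log2(normalized count + 1) and another filter, so these fits differ in more than the pseudogenes. Only listed entries were added, so reads assigned elsewhere were not recovered.

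Genes that share the TOP start or act on it were counted beside the ribosomal proteins. Over all genes, MS177 gave calls for 31.1% higher and 31.4% lower in T47D-TR, and for 12.9% higher in BT-549. MS8815 gave calls for 6.25% of all genes. With MS177 in T47D-TR, 5 of 23 translation factors and other TOP genes rose and 4 fell (median 0.09), and 9 of 10 host genes of small nucleolar RNAs rose (median 1.07). GAS5, a host gene with a TOP start, had 11935 and 14616 counts with MS177, against 1124 and 998.5 with DMSO (3.23 ± 0.12, adjusted p = 6.67e-06, limma). ZFAS1, another, had 8770 and 11202 with MS177, against 1601 and 1272 with DMSO (2.50, adjusted p = 2.17e-05). EEF1A1, which brings aminoacyl-tRNA to the ribosome, had 37183 and 43532 counts with MS177, against 171450 and 140390 with DMSO, and fell (−1.94 ± 0.18, adjusted p = 0.000131). EIF4A2, an RNA helicase of initiation, had 25800 and 27064 with MS177, against 8785 and 7877 with DMSO, and rose (1.62, adjusted p = 5.67e-05). All called host genes rose, and called translation factors went both ways.

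In BT-549, MS177 raised 9 of 12 host genes (median 1.08) and 1 of 23 translation factors and other TOP genes (median 0.31). GAS5 had 24114 and 30413 counts with MS177, against 4877 and 4567 with DMSO (2.50 ± 0.15, adjusted p = 0.00151). SNHG8 had 4075 and 7825 with MS177, against 1438 and 1147 with DMSO (2.05, adjusted p = 0.0116). In T47D none was called, with medians of 0.94 for the host genes and 0.44 for the translation factors. GAS5 had 45151 and 16092 counts with MS177 there, against 3911 and 4612 with DMSO (2.66, adjusted p = 0.158). MS8815 raised 2 of 10 host genes in T47D-TR: GAS5 had 4480 and 3068 with MS8815, against 1051 and 888.9 with DMSO (1.85, adjusted p = 0.0382), and ZFAS1 had 6637 and 4176 with MS8815, against 1436 and 1218 with DMSO (1.92, adjusted p = 0.0415).

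Of 15 genes that regulate mTORC1 or TOP mRNAs, 5 rose and 7 fell with MS177 in T47D-TR (median −0.22), and 3 rose in BT-549. Beside the shares over all genes (31.1% higher and 31.4% lower in T47D-TR, 12.9% higher in BT-549), these counts do not set the list apart. SESN2, a stress-induced inhibitor of mTORC1, had 3165 and 2867 counts with MS177 in T47D-TR, against 468.2 and 463.6 with DMSO (2.03, adjusted p = 8.97e-06). In BT-549 it had 9816 and 8847 with MS177, against 435 and 526.1 with DMSO (4.03, adjusted p = 0.000495). In T47D it had 6531 and 6882 with MS177, against 1283 and 1250 with DMSO (2.38, adjusted p = 0.124). With MS8815 it had 757 and 1175, against 279.9 and 275.5 with DMSO (1.51, adjusted p = 0.0464). EIF4EBP1, a repressor of cap-dependent initiation, rose in T47D-TR with MS177 (1.39, adjusted p = 8.93e-05), and DDIT4, another mTORC1 inhibitor, rose in BT-549 (2.05, adjusted p = 0.00205).

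**Figure D5:**
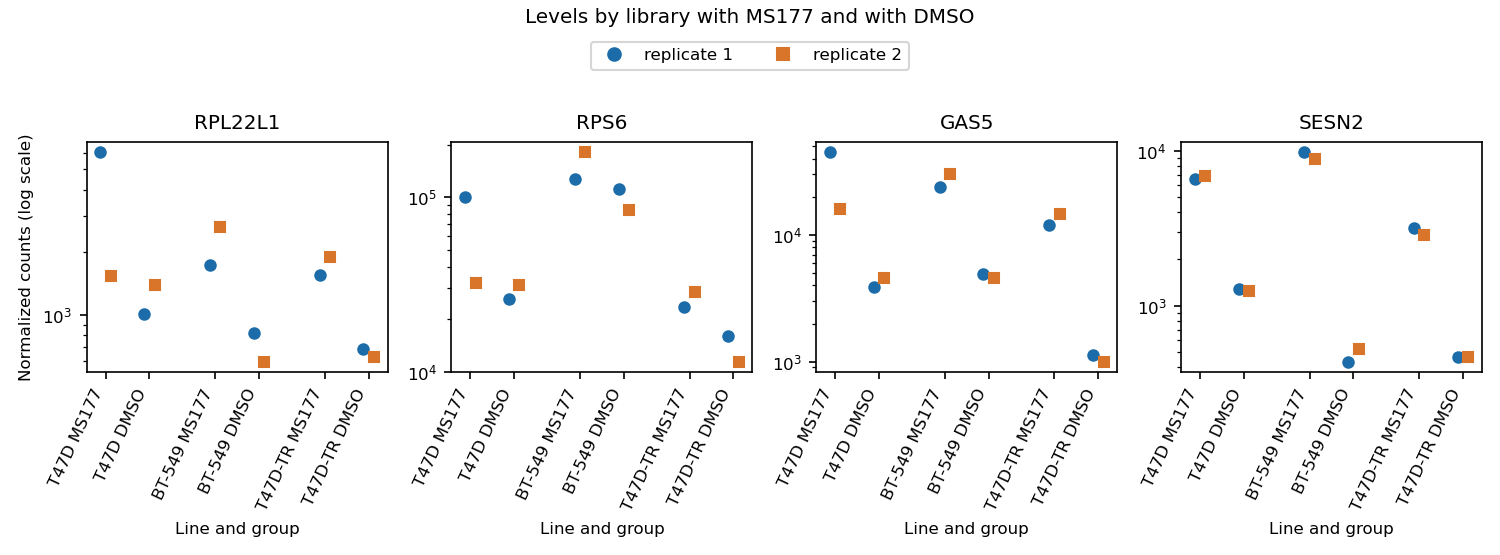
Normalized counts (log axis) of RPL22L1, RPS6, the host gene GAS5 and SESN2 with MS177 and with DMSO in the 3 lines; each point is a library. In every line both MS177 points of GAS5 and SESN2 lie above both DMSO points, and in T47D the MS177 libraries are far apart for RPL22L1 (6059 and 1535) and close for SESN2 (6531 and 6882).

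Of 12 chaperones and importins of ribosomal proteins, 4 rose and 1 fell with MS177 in T47D-TR, and 4 rose in BT-549. RPS19BP1 rose (0.64) and IPO9, an importin, fell (−0.67) in T47D-TR. Of 78 mitochondrial ribosomal proteins, which belong to a separate ribosome, 29 rose and 10 fell with MS177 in T47D-TR (median 0.17), and 5 rose in BT-549. The median of the cytosolic members in the same comparisons was 0.32 and 0.30. Over all genes 31.1% were called higher and 31.4% lower in T47D-TR, and 12.9% higher in BT-549. The counts of genes that rose in these lists are therefore not read as results about them.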

How the data were processed

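The authors deposited 15 tables, each holding 1 compound and its DMSO libraries, whose values were on a log2 scale. Per the submitters' processing notes, RSEM and DESeq were among the tools and hg38 was the build, with no versions given. The values were taken as counts scaled by size factors and passed through a variance-stabilizing transform. The lowest value of a table, a count of 0, lay between 3.45 and 9.28. Undoing the transform gave normalized counts. In T47D and BT-549, 100% of values up to 1000 were whole reads within 0.05, and in T47D-TR 8.17 to 16.3% were, so depth is unknown there. Counts of the same DMSO libraries differed between T47D-TR tables by factors that varied from gene to gene (SD of log2 factors 0.141 to 0.226). In T47D and BT-549 this SD was at most 0.000733. Levels and shares in T47D-TR carry such factors, and whether undoing the transform gives scaled counts there is not known.

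Comparisons with DMSO used limma 3.58.1 (R 4.3.3) on the deposited log2 values (trend and robust options), for genes more than 1 above the lowest value in at least 2 libraries. Tests were two-sided, with Benjamini-Hochberg adjustment over all tested genes at 0.05. Comparisons between compounds and lines used limma after adding 1 to the normalized counts and taking log2, for genes that reached 10 in 2 or more libraries. In T47D-TR the tables were joined gene by gene through their shared DMSO libraries. The test was run on simulated data first. For MS177-N1 in T47D, with 1 library, and wherever leaving out a library left 1, the lone library was assumed to vary as the other groups in the fit did. Alternatives were back-transformed values, no filter, centring on other genes, quantile normalization, pseudogene entries added, voom on recovered reads, a fit over all libraries of a line, a replicate block, and leaving out each library. Crossed pairing was added after the data were seen.

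The members and lists were chosen with earlier results of these data known. RPLP0, RPL3, RPL5, RPL11, RPS3, RPS6, RPS19, RPSA and the paralog pairs were always named. Against DMSO, MS177 and MS8815 had up to 4 called genes named in each direction, by size (2 and 2 for other compounds and between compounds or lines). Where none passed, the largest differences in each direction were given as values. Some genes that the rule names are not reported here. Of each other list up to 2 genes were named. Gene positions are from GENCODE (hg38), and promoter windows and start sites are from RefSeq (GRCh38.p14). Figures were drawn with matplotlib 3.10.9. Sequencing depth covers counting error only, and intervals cover the spread between the libraries at hand.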

Additional observations from a re-analysis of the deposited data

Results flagged for a closer look

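The response to MS177 differed between T47D-TR and BT-549 for 3 ribosomal protein genes by the test of the difference itself (limma interaction, adjusted over all genes). These were 3.61% of the members, a smaller share than the 32.5% of all genes called in the same fit. RPS27 stood at 1.80 (log2, T47D-TR minus BT-549), with responses of 1.67 in T47D-TR and −0.13 in BT-549 and an adjusted p of 0.00224. In T47D-TR it had 811.5 and 937 normalized counts with MS177 and 308.8 and 241.4 with DMSO. In BT-549 it had 16506 and 20197 with MS177 and 23286 and 17185 with DMSO. The levels are not compared between lines, since the tables were made separately. With DMSO RPS27L was 63.1 and 67.2% of the counts of its pair with RPS27 in T47D-TR, against 5.21 and 5.33% in BT-549. Whether reads of RPS27 were assigned elsewhere in T47D-TR was not tested. RPL3 stood at −0.79 and RPS4X at −0.69, with adjusted p-values of 0.0242 and 0.0339, and each of these calls was lost under 6 of 11 alternatives. Groups of 2 libraries are too small for a test of single outlying values, and none was run.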

How the results depend on the processing

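The labels do not say that replicate numbers pair the samples. Deviations of same-numbered libraries correlated at −0.72 to 0.73 over 11 comparisons with DMSO, and above 0.1 in 3 of them, MS177-N1 in BT-549 (0.73), MS177-N2 in T47D-TR (0.55) and MS177-N2 in T47D. With 2 pairs each this is a hint only. The counts of members in this section are given without the share of all genes called in the same fit. They show how calls moved with the setting and do not set the members apart from other genes. With a replicate block MS177 called 29 members in T47D-TR (26 higher, 3 lower) and 1 in BT-549, MS177-N1 called 48 in T47D-TR and 81 in BT-549, all lower there, MS177-N2 in BT-549 called 0, and the difference of responses between T47D-TR and BT-549 was called for 1. Crossed pairing swapped the replicate numbers of the treated libraries. It was fitted only where same-numbered deviations correlated below −0.1. The pairing was thus picked from the tested values, and its counts are no support for a change. With crossed pairing MS177 called 1 member in T47D, 72 in BT-549 (67 higher) and 59 in T47D-TR (51 higher), and MS177-N2 and C24 in BT-549 called 78 and 62, all lower. Against DMSO no paired analysis was possible for MS177-N1 in T47D because it had 1 library, nor at 30 h because the replicate numbers differ. Between compounds a replicate block was fitted in both cases, at 30 h without the DMSO libraries. In BT-549 MS177 called 7 members under quantile normalization and 5 in the fit over all libraries of the line. MS177-N2 in BT-549 called 0 under back-transformed values, no filter, centring, quantile normalization, pseudogene entries, voom and the fit over all libraries, and MS177-N1 in T47D-TR called 0 in that fit. Between compounds, the deposited scale gave 16 members for MS177 against MS177-N1 in BT-549, and in T47D-TR 53 (10 higher) against MS177-N1, 44 against MS177-N2 and 17 against C24; fitting the pair alone gave 15 in BT-549 against MS177-N1, and 51 and 17 in T47D-TR against MS177-N1 and C24. The share of counts in T47D moved from its group mean with C24 to 5.98% without mitochondrial transcripts and 5.76% with pseudogene entries, with MS177-N1 to 6.17% without paralogs, 6.57% without mitochondrial transcripts and 6.33% with pseudogene entries, and with MS177-N2 to 6.02% without mitochondrial transcripts. In T47D-TR it was 8.93% with MS177-N1 with pseudogene entries. Leaving out a library, the members called ranged over 0 to 83 for MS177, 0 to 49 for MS177-N2 and 0 to 61 for C24 in T47D; 1 to 29 for MS177, 0 to 0 for MS177-N1, 0 to 31 for MS177-N2 and 0 to 14 for C24 in BT-549; and 14 to 58 for MS177, 15 to 59 for MS177-N1, 0 to 0 for MS177-N2, 0 to 2 for C24, 0 to 66 for MS8815, 0 to 80 for MS8815-N and 0 to 56 for EPZ-6438 in T47D-TR. For MS177 against MS177-N1 they ranged over 40 to 83 in T47D, 5 to 59 in BT-549 and 17 to 24 in T47D-TR, against MS177-N2 over 0 to 83, 3 to 64 and 10 to 21 in the same lines, and against C24 over 0 to 83, 4 to 64 and 13 to 32. For MS8815 against MS8815-N they were 0 to 7 and against EPZ-6438 0 to 0. Differences of responses ranged over 1 to 5 (T47D-TR and BT-549), 0 to 68 (T47D and BT-549) and 0 to 78 (T47D-TR and T47D). Of 115 estimates of named genes, 25 took both signs over the libraries left out, among them RPL39L (−0.95 to 1.22) and RPL7A (−0.69 to 0.61) with MS177 in T47D, and RPL15 (−2.87 to 0.79) with MS8815-N. The causes were not tested.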
